A study of Mus musculus with 2 samples.

Results

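The long-range regulatory domain of mouse Sox9 was described here from DNase-seq of embryonic limb. The domain was taken by position alone, as the sequence between the Kcnj2 gene and the Sox9 gene, the Sox9 gene itself, and the sequence from Sox9 to the next protein-coding gene downstream, Slc39a11. It spans 2168.03 kb of chromosome 11 in the mm10 build. It held 228 of the 174430 peaks of replicate 1 and 207 of the 167369 peaks of replicate 2. Merging the overlapping peaks of both libraries gave 149 shared peaks in the domain, of 118486 in the genome. The wider accessible intervals, called hotspots, numbered 207 of 151632 in replicate 1 and 187 of 143869 in replicate 2, and 137 of 100847 were shared.

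DNase-seq cuts chromatin with the enzyme DNase I and sequences the cut ends, so that a peak marks a short stretch of DNA that the enzyme could reach. The samples form 1 group of limb tissue from embryos of the B6NCrl strain at 11.5 days, with male and female embryos pooled. There were 2 biological replicates with 1 technical replicate each, both labelled with the same donor identifier, and no treatment, genotype or second tissue was compared. Nothing in the labels says how many embryos were pooled or how forelimb and hindlimb were mixed. The label of replicate 2 names a pair of sequencing instruments and that of replicate 1 names none. In such bulk tissue, a site open in few cells and a site weakly open in many cells cannot be told apart.

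SOX9 is a transcription factor with an HMG-box DNA-binding domain. In the limb bud it is required for mesenchymal cells to condense and become cartilage, where it acts with SOX5 and SOX6 on cartilage matrix genes such as Col2a1 and Acan. Its gene lies between long stretches without protein-coding genes that hold many enhancers acting in different tissues. Human rearrangements in the matching sequence, some far upstream of SOX9, are known from campomelic dysplasia, Pierre Robin sequence and disorders of sex development. Kcnj2, at the far end, encodes an inward-rectifier potassium channel, and Slc39a11 encodes a zinc transporter.

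Sox9 (ENSMUSG00000000567.5) lies on the plus strand at chr11:112782224-112787760, so that upstream below means towards Kcnj2 and distances are from the Sox9 start at position 112782224 to the centre of a peak. The upstream stretch runs for 1705.4 kb from position 111076822, just past the end of Kcnj2. The downstream stretch runs for 457.092 kb to position 113244852. Slc39a11 is on the minus strand, so its end faces Sox9 and its own start is 867.9 kb away from the Sox9 start. Of the noncoding genes in between, BC006965 starts 248 bp from Sox9 and is read in the opposite direction over 118.05 kb. The long intergenic RNA gene 2610035D17Rik covers 157.9 kb downstream and starts 419.6 kb from Sox9, reading towards it.

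The sequences below are the strongest shared peaks away from the Sox9 start, by the mean of their signal ranks within each library. They are shown because, apart from the peak at the Sox9 start, the strongest sites of the domain lay far from the gene. Each is read 5′ to 3′ on the plus strand of GRCm38, whose chromosome lengths match those of the mm10 files. Capitals mark matches to the short binding-site words described further on, such as TAATTA for homeodomain factors and CAGCTG for the E-box, on either strand.
419.6 kb downstream, chr11:113201776-113201925: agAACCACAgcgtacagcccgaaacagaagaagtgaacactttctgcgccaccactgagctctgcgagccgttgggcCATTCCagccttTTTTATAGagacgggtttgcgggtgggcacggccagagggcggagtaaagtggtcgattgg
232.2 kb downstream, chr11:113014336-113014485: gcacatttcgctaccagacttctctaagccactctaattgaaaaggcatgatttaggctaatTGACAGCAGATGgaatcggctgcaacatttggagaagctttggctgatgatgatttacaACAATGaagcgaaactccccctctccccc
369.6 kb upstream, chr11:112412516-112412705: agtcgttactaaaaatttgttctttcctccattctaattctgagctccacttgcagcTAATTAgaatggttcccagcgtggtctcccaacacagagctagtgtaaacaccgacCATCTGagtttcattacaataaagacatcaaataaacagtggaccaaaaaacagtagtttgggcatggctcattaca
331.8 kb upstream, chr11:112450376-112450525: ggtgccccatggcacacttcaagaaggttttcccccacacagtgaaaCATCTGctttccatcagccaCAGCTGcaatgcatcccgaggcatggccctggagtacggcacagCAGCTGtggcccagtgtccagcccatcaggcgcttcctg
953.5 kb upstream, chr11:111828616-111828765: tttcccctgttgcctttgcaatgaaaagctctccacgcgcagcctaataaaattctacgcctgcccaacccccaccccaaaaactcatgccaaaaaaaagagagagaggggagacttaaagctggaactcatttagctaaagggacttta
383.0 kb downstream, chr11:113165196-113165345: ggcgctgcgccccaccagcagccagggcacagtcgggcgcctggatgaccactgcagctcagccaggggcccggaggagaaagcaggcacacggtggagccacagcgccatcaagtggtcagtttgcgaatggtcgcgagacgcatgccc
The peak 419.6 kb downstream lies 13 bp from the annotated start of 2610035D17Rik and holds RUNX, TEAD and HOX13 words. The peak 232.2 kb downstream holds a MEIS word at bases 63 to 68 that is followed directly by a TWIST-like E-box word at bases 69 to 74, and a SOX word at bases 122 to 127. The peak 331.8 kb upstream holds 2 E-box words and 1 TWIST-like word. The peaks 953.5 kb upstream and 383.0 kb downstream hold none of the words that were searched. A match is a description of the letters and does not show that a factor was bound.

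Accessible sites were found along nearly the whole domain. The upstream stretch held 143 peaks in replicate 1 and 135 in replicate 2, of which 99 merged regions were shared. The Sox9 gene held 9 and 11 peaks, with 7 shared. The downstream stretch held 76 and 61 peaks, with 43 shared. The counts in the libraries gave a peak density of 81.5 ± 3.32 per Mb upstream and 150 ± 23.2 per Mb downstream (SD, n = 2), and the libraries' values did not overlap between these stretches (83.9 and 79.2 per Mb upstream, 166 and 133 per Mb downstream). With 1 group of 2 libraries no test was made, so these are descriptions. The density of shared peaks was 58.1 per Mb upstream and 94.1 per Mb downstream.

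Hotspots covered a small share of the sequence outside the gene. They took up 2.56% of the upstream stretch in replicate 1 and 2.62% in replicate 2. In the downstream stretch they took up 4.46% and 4.33%. Over the 5.537 kb of Sox9 itself they covered 56.1% in replicate 1 and 79.4% in replicate 2, the segment in which the libraries were farthest apart. The median hotspot of the domain was 262 bp wide in replicate 1 and 290 bp in replicate 2, beside 251 and 263 bp over the genome.

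Most shared sites were far from the gene. The median distance of the 149 shared peaks from the Sox9 start was 448.4 kb, 69 of them lay beyond 500 kb, and 34 lay beyond 1000 kb. By annotation, 116 were intergenic, 16 lay in introns of 2610035D17Rik and 7 in introns of BC006965. Introns of Gm11680 held 2, and 1 lay in an intron of 4933434M16Rik. The remaining 7 were in Sox9. Within 1 kb of any annotated start, coding or noncoding, there were 6.

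**Figure D1:**
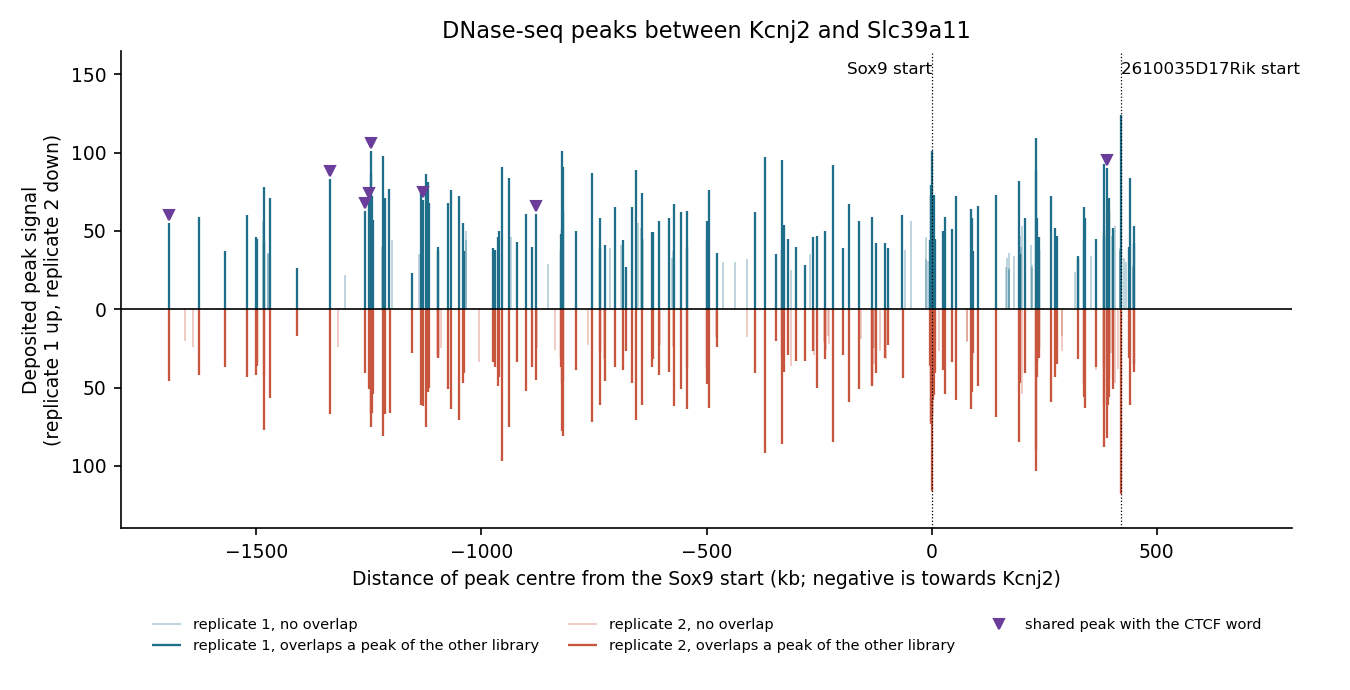
Deposited peak signal (no stated scale) against distance from the Sox9 start in kb for every peak of the domain, replicate 1 upwards and replicate 2 downwards, with dark lines for peaks that overlap a peak of the other library, pale lines for those that do not, and triangles for the 8 shared peaks with the CTCF word. The highest line of both libraries stands at the 2610035D17Rik start (124 and 118). The Sox9 start has 101 and 116, the peak 232.2 kb downstream has 109 and 103, and high dark lines continue beyond 1200 kb upstream.

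In bins of 100 kb, the bin with the most shared peaks was the one that starts at Sox9 and runs downstream, with 19 peaks in replicate 1, 25 in replicate 2 and 16 shared. The bins from 200 to 300 kb and from 300 to 400 kb downstream followed with 12 shared peaks each. The neighbouring bin from 100 to 200 kb downstream held 14 peaks in replicate 1 but 4 in replicate 2, so the libraries differed most in relative terms there. Upstream, the fullest bin lay 1200 to 1300 kb from the gene and held 15 and 11 peaks, with 10 shared. The upstream bins next to Sox9 held 15 and 9 peaks with 7 shared within 100 kb, and 7 and 15 peaks with 6 shared from 100 to 200 kb. By shared peaks the fullest upstream bin was thus the distant one, but by the peaks of replicate 2 alone it was that from 100 to 200 kb, and in replicate 1 the distant bin tied with the nearest one.

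**Figure D2:**
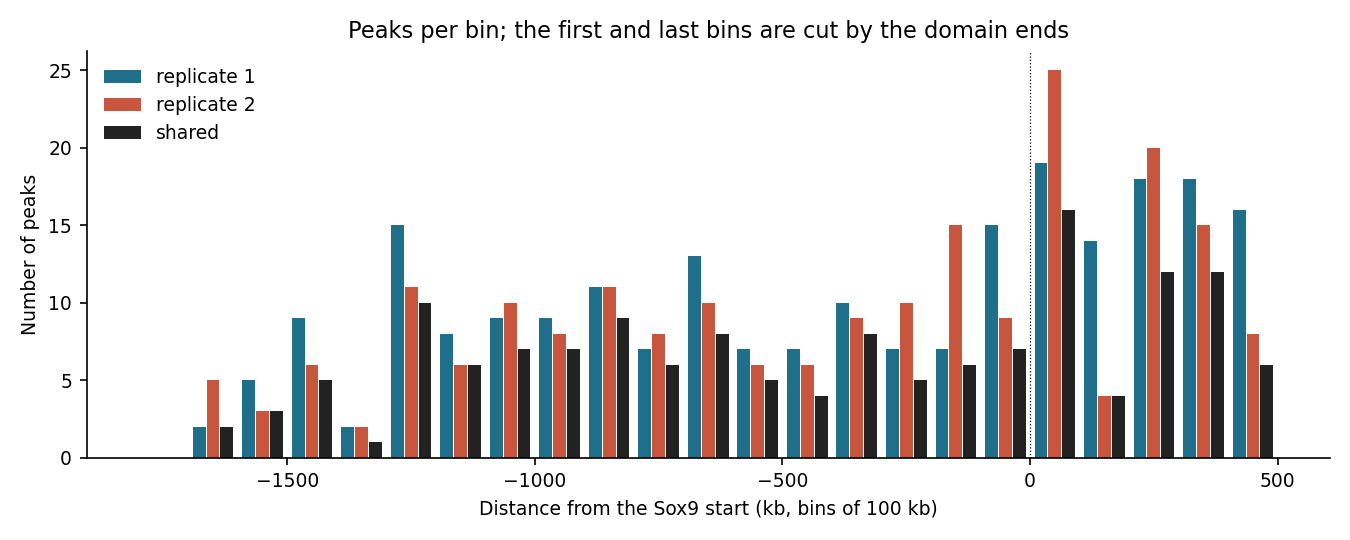
Number of peaks per 100 kb bin against distance from the Sox9 start in kb, for replicate 1, replicate 2 and their shared peaks. Shared peaks number 16 in the bin just downstream of the start and 10 in the fullest upstream bin, 1200 to 1300 kb away; the bins at both ends are cut short by the neighbouring genes.

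The full bin of 100 kb with the fewest shared peaks, 1, lay 1300 to 1400 kb upstream. By distance class, the density of shared peaks was lowest at the Kcnj2 end. It was 70 per Mb within 100 kb upstream, 57.5 from 100 to 500 kb, 70 from 500 to 1000 kb and 58 from 1000 to 1500 kb. In the last 205.4 kb before Kcnj2 it was 24.3 per Mb, from 5 shared peaks. Downstream it was 160 per Mb in the first 100 kb, which includes the 7 shared peaks inside Sox9. Without the gene body it was 95.3 per Mb, from 9 shared peaks, and beyond 100 kb it was 93.8 per Mb. Signal did not follow the same order. When each peak was ranked within its own library, the median rank of shared peaks was the 74.9th percentile at 1000 to 1500 kb upstream, and between the 54.4th and the 63.1st percentile in every other class.

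The 3 longest stretches without a peak in either library were 72.61, 60.39 and 56.43 kb long. All of them lay toward Kcnj2, at 1409 to 1336 kb, 1470 to 1409 kb and 1626 to 1570 kb upstream. The first 2 are separated by a single shared peak of low signal, 26 in replicate 1 and 17 in replicate 2.

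Around the gene itself, 19 peaks of replicate 1 and 21 of replicate 2 lay within 5 kb of either end of Sox9. The strongest was centred 73 bp before the start in replicate 1, with a signal of 101, and 93 bp before it in replicate 2, with a signal of 116. It lies between the starts of Sox9 and BC006965, and its centre places it in the upstream count. Next in both libraries was a peak 493 bp before the start, inside BC006965, with signals of 79 and 73. A further upstream peak had 73 in replicate 1 at 2253 bp and 72 in replicate 2 at 2293 bp. Ranked within their own library, these 3 sites stood at the 93.1, 82.8 and 78.9 percentile in replicate 1 and at 96.7, 83.7 and 83.2 in replicate 2.

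Within the gene, the shared peaks fell in exons, introns and the 3′ untranslated region. In the first intron the peak 1287 bp from the start had a signal of 69 in replicate 1, and its partner at 1347 bp in replicate 2 also had 69. The peak at the end of the first coding exon had 53 in replicate 1 and 66 in replicate 2. In the last coding exon, peaks about 3 kb from the start had 70 and 58. Of the 2 shared peaks in the 3′ untranslated region, the one 4387 bp from the start in replicate 1 had 73 there and 55 in replicate 2. The other had 47 and 33. Replicate 2 also listed 3 weak peaks in that region, with signals of 20, 20 and 23, that had no overlapping peak in replicate 1. The widest hotspot of replicate 2 in the domain, 2409 bp, runs across the Sox9 start. In replicate 1 the hotspot there is 1303 bp wide.

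**Figure D3:**
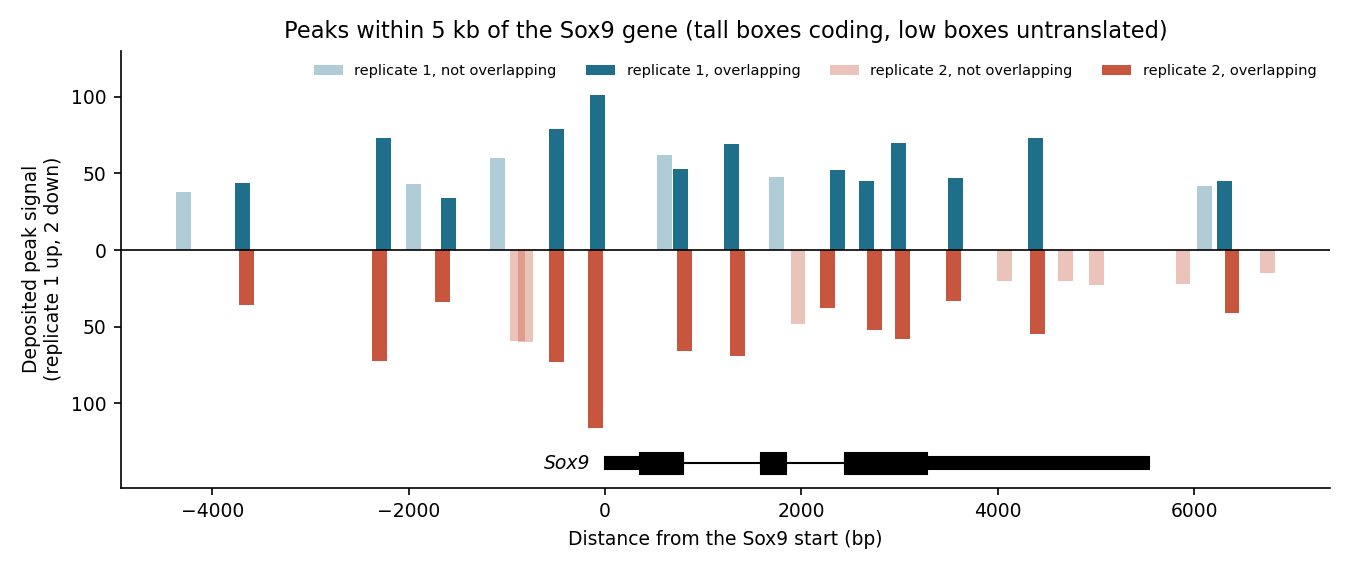
Deposited peak signal against distance in bp from the Sox9 start for every peak within 5 kb of the gene, replicate 1 upwards and replicate 2 downwards, each bar 150 bp wide as the peak is, over the gene model. Shared peaks (dark) stand from about 3.7 kb before the start to past the end of the gene, and the highest bars, 101 and 116, stand at the start.

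The strongest shared peaks were ranked by the mean of their percentiles in both libraries, since the signal has no stated scale and percentiles can be set side by side. The peak at the 2610035D17Rik start came first, with a signal of 124 in replicate 1 and 118 in replicate 2, at the 98.7th and 97.2nd percentile. The peak at the Sox9 start came second. Behind them was a peak 232.2 kb downstream, with 109 and 103. Next came a peak 369.6 kb upstream, with 97 and 92, which holds a TAATTA word and a TWIST-like word.

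The other 6 of the 10 strongest shared peaks had signals of 89 to 101 in replicate 1 and 78 to 97 in replicate 2. They were centred 953.5, 331.8, 1218.8 and 820.2 kb upstream and 383.0 and 232.6 kb downstream. Every one of the 10 was inside a hotspot whose −log10 q was at the ceiling of 100 in both libraries. Only 2 of the 10 were within 1 kb of an annotated start, those at 2610035D17Rik and Sox9. Just outside the 10 was a peak 219.0 kb upstream with 92 and 85.

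Some shared peaks stood in tight runs. Runs were defined after the values were seen, as 5 or more shared peaks each within 5 kb of the next, and there were 4 of them with 33 shared peaks in all. The largest, with 13 shared peaks over 10.23 kb, is the one on Sox9 itself. A run of 8 shared peaks over 7.41 kb lies 232.2 to 239.4 kb downstream and contains 2 of the 10 strongest peaks, with 109 and 103 and with 89 and 90. Its other members were weaker, reaching down to 35 in replicate 1 and 24 in replicate 2. The remaining runs have 6 shared peaks each. One lies 1249.6 to 1240.4 kb upstream over 9.33 kb, with signals of 49 to 101 in replicate 1 and 37 to 75 in replicate 2. The other lies 824.0 to 817.9 kb upstream over 6.21 kb, with signals of 37 to 101 and 31 to 81.

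Wide hotspots also marked distant sites. In replicate 1 the widest, 1392 bp, lay 938.1 kb upstream, and the overlapping hotspot of replicate 2 was 1277 bp wide. Second in replicate 1 was a hotspot of 1380 bp at 439.2 kb downstream. Those at 369.9 kb upstream (1184 bp) and 232.2 kb downstream (1143 bp) contain 3 of the 10 strongest shared peaks. In replicate 2, a hotspot of 1318 bp lay 88.2 kb downstream, and the other 3 widest besides it and the one at 938.0 kb upstream were on or within 2.7 kb of the Sox9 start.

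The noncoding genes of the domain differed in their accessible sites. The body of 2610035D17Rik held 27 peaks in replicate 1 and 24 in replicate 2, with 16 shared, or 101 shared peaks per Mb. Its promoter, taken as 1 kb to either side of any of its starts, held 3 shared peaks. BC006965 held 15 and 12 peaks with 7 shared, 59.3 per Mb, and its start lies in the accessible stretch around the Sox9 start. Gm11680, a long intergenic RNA gene 674.8 kb upstream, had 2 shared peaks in its body and none at its start. Gm11674, Gm11681 and 4732490B19Rik had no shared peak in body or promoter, nor had the 4 pseudogenes of the upstream stretch. Outside the domain, the 405.2 kb body of Slc39a11 had 35 shared peaks, 86.4 per Mb, and Kcnj2 had 2 at its promoter.

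The libraries were compared peak by peak. In replicate 1, 151 of the 228 domain peaks met a peak of replicate 2 by at least 1 bp, which is 66.2% (95% Wilson interval 59.9 to 72.1). Over all named chromosomes the share was 69.8%, and within intergenic intervals of 500 kb or more it was 66.8%. In replicate 2, 152 of 207 domain peaks overlapped, 73.4% (67.0 to 79.0), beside 73.1% over all chromosomes and 68.2% in the long intergenic intervals. These intervals cover counting error over peaks only, and neighbouring peaks are not independent. Over peaks of all signals, the shares of the domain thus lay near those of the genome. The median signal percentile of domain peaks was 50.8 in both libraries, against 37.5 and 37.3 in the long intergenic intervals, so those shares are not matched for signal. For hotspots, 149 of 207 overlapped in replicate 1, 72.0% (65.5 to 77.7) beside 75.1% genome-wide, and 144 of 187 in replicate 2, 77.0% (70.5 to 82.5) beside 75.0%.

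Sharing rose with signal. Among domain peaks in the highest 25 percentiles of their library, 46 of 46 in replicate 1 and 44 of 44 in replicate 2 had an overlapping partner, beside 96.7% and 97.4% over the genome. From the 50th to the 75th percentile, 76.8% did in replicate 1, beside 84.6% over the genome and 90.5% in the long intergenic intervals. In replicate 2 it was 90.5%, beside 89.2% and 93.2%. From the 25th to the 50th percentile it was 57.9% in replicate 1, beside 62.1% and 67.5%, and 73.8% in replicate 2, beside 68.5% and 73.5%. In the lowest 25 percentiles, 8 of 37 and 6 of 39 had a partner. These are 21.6% and 15.4%, beside 35.4% and 36.6% over the genome. Most of the weakest domain peaks thus had no overlapping peak in the other library.

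Peaks private to a library, which no region of the other list overlapped, whether peak or hotspot, numbered 63 in replicate 1 (27.6%, beside 22.1% over the genome and 27.6% in the long intervals) and 45 in replicate 2 (21.7%, beside 22.7% and 28.4%). Their median signal was 35 in replicate 1 against 56 for the overlapping peaks, and 25 against 46 in replicate 2. The strongest in replicate 1 had signals of 56, 56 and 55, at 1484.3, 45.0 and 652.3 kb upstream. The strongest in replicate 2 had 39, 38 and 36, at 365.6 and 412.7 kb downstream and 311.8 kb upstream. Of these 6, the ones at 365.6 kb downstream and 311.8 kb upstream were 220 and 240 bp from a peak of the other library. None of the 6 was above the 63.5th percentile of its own library.

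Among the 149 shared peaks, signal ran from 23 through a median of 56 to 124 in replicate 1, and from 17 through 46 to 118 in replicate 2. Across these peaks Spearman's rho between the libraries was 0.875, beside 0.888 over the 90760 distal shared peaks of the genome. Distal here means more than 1 kb from a protein-coding start. The peaks share 2 libraries and are not independent, so this is given as a description. The median difference in percentile between the libraries was 6.61. It was largest for a peak 195.3 kb downstream with 35 in replicate 1 and 47 in replicate 2. There the peaks of the libraries, chr11:112977516-112977665 and chr11:112977376-112977525, overlap only at their edges. Next were peaks 235.0 and 238.4 kb downstream with 58 against 30 and 46 against 24. All 3 were in the downstream stretch, and the last 2 belong to the run of 8 peaks described above.

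**Figure D4:**
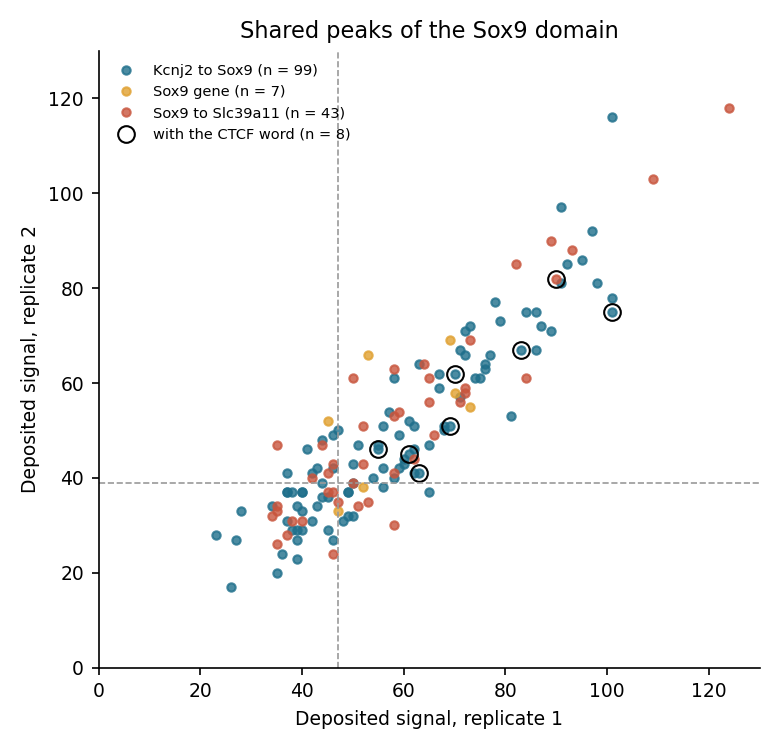
Deposited signal of each of the 149 shared peaks in replicate 1 (horizontal) and replicate 2 (vertical), coloured by segment, with rings on the 8 that hold the CTCF word and dashed lines at each library's median over all its peaks (47 and 39). The points rise together from the lower left to the 2610035D17Rik start at 124 and 118, and the ringed points all lie above both medians.

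To place the upstream stretch among other long intervals, shared peaks were counted in all 728 stretches of 500 kb or more between neighbouring protein-coding genes. The median density was 14.7 shared peaks per Mb, with quartiles of 5.21 and 35.8. The Kcnj2 to Sox9 interval, with 58.1 per Mb, ranked 63, and 91.3% of the intervals were less dense. By number of shared peaks, 99, it ranked 7. Density tended to be lower in the longer intervals. Of the 139 intervals of 1500 kb or more, a limit set after the values were seen, the median was 9.64 per Mb and only 1 was denser than Kcnj2 to Sox9. That was the 65.4 per Mb between Slc4a3 and Epha4, the gene of an ephrin receptor.

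The 5 densest of the 728 were 609.0 to 813.2 kb long. Mtx2 to Hnrnpa3, near the Hoxd cluster of limb patterning genes, had 147 per Mb. Thap1 to Zfp703 and Npvf to Nfe2l3 had 124 and 123. Atp5g3 to Lnpk, on the other side of Hoxd, had 103, and Ubash3b to Sorl1 had 102. Closest in rank to Kcnj2 to Sox9 were Ppargc1a to Dhx15 (58.4) and Kif2a to Ndufaf2 (58.1) above it, and Rragc to 3100002H09Rik (58.0) and Icos to Pard3b (57.9) below it. These 4 intervals were 582.5 to 980.6 kb long and held 34 to 57 shared peaks. The stretch downstream of Sox9, at 457.092 kb, falls under the limit of 500 kb. Among the 1634 intervals of 200 kb or more it ranked 59, with 96.4% less dense, and the median there was 23.9 per Mb.

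**Figure D5:**
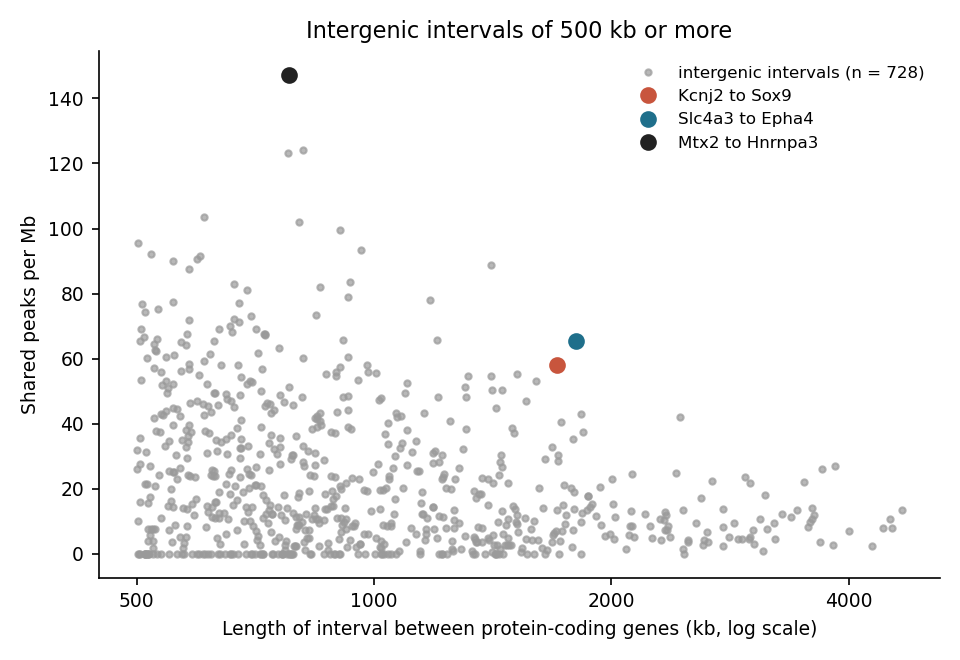
Shared peaks per Mb against interval length in kb (log scale) for the 728 intervals of 500 kb or more between protein-coding genes, with 3 of them coloured. Kcnj2 to Sox9 stands at 1705.4 kb and 58.1 per Mb, with only Slc4a3 to Epha4 (65.4) above it among intervals of 1500 kb or more, while the densest interval, Mtx2 to Hnrnpa3 (147), is 780.8 kb long.

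CTCF is a zinc-finger protein that binds insulators and helps to hold chromatin loops, and the orientation of its sites matters for the loops they form. The core word CCANNAGNNGGC, where N is any base, was searched on both strands in the central 150 bp of each shared peak. It was found in 8 of 149 (5.37%, 95% Wilson interval 2.75 to 10.2). The share was 12.035% in distal shared peaks of the genome and 6.23% in the 15904 shared peaks of long intergenic intervals. In windows of the same length 500 bp to either side of the domain's peaks it was 2 of 298 (0.671%). The 8 matches are shown with 12 bases on each side, read 5′ to 3′ on the strand that holds the word, with the word in capitals.
1693.2 kb upstream, minus strand, chr11:111088915-111088950: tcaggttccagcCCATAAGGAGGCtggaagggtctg
1336.3 kb upstream, minus strand, chr11:111445967-111446002: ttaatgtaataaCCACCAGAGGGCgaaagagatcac
1258.6 kb upstream, minus strand, chr11:111523660-111523695: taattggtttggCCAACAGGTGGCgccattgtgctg
1249.6 kb upstream, minus strand, chr11:111532644-111532679: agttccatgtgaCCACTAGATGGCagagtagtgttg
1244.4 kb upstream, plus strand, chr11:111537830-111537865: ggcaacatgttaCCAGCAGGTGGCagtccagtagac
1129.1 kb upstream, plus strand, chr11:111653050-111653085: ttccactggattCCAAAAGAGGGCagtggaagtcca
877.9 kb upstream, plus strand, chr11:111904261-111904296: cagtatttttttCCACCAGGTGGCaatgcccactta
390.4 kb downstream, plus strand, chr11:113172589-113172624: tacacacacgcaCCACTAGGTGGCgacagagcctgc
Of these, 7 lay upstream of Sox9, 4 on the minus strand and 3 on the plus strand. The one nearest Kcnj2 was 1693.2 kb from Sox9, close to the Kcnj2 end of the domain. Those at 1258.6, 1249.6 and 1244.4 kb lay close together, the first pair on the minus strand and the last on the plus strand, and the last had 101 in replicate 1, the highest of the 8 there, and 75 in replicate 2. No match was found in the shared peaks within 877.9 kb upstream of Sox9. The single one downstream, at 390.4 kb, lay in an intron of 2610035D17Rik on the plus strand, with signals of 90 and 82, the latter the highest of the 8 in replicate 2. The median of the mean percentile was 73.9 for the 8 peaks and 59.5 for the 141 others. Among all domain peaks of each library, the word was in 10 of 228 in replicate 1 and 10 of 207 in replicate 2. The positions of those matches are not given here. The word is only part of the CTCF motif, and binding was not measured.

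Other words, chosen for factors of the limb bud and of cartilage, were counted in the same windows. The homeodomain word TAATTA was in 17 of the 149 shared peaks, 11.4% (7.25 to 17.5), beside 5.41% of distal shared peaks, 7.13% in long intergenic intervals and 5.70% of flanking windows. Of these 17 peaks, 13 were upstream and 4 downstream. The E-box CAGCTG was in 27, 18.1% (12.8 to 25.1), beside 16.6% of distal peaks and 5.03% of flanks. The TWIST-like E-box CATCTG was in 31, 20.8% (15.1 to 28.02), beside 20.04% and 13.8%. Homeodomain factors such as MSX1 and PRRX1 and the bHLH factor TWIST1 are known from limb mesenchyme, but the words do not tell family members apart.

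SOX words, which SOX9 shares with its relatives, were found at shares near those of the flanks. ACAAAG was in 18 peaks, 12.1% (7.78 to 18.3), beside 12.8% of distal peaks and 12.4% of flanks. ACAATG was in 7, 4.70% (2.29 to 9.38), beside 6.80% and 7.05%. A pair of facing SOX sites, searched only at a fixed short spacing, was in 0 of 149 peaks. The Wilson interval for it reaches 2.51%, and its share in distal peaks was 0.270%. This pair is rare everywhere, so 149 windows cannot show a difference of that size. Pairs at other spacings were not searched, so the presence of sites that SOX9 dimers bind in cartilage genes was not tested.

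The remaining words had intervals that included the distal share. They were GGAATG of TEAD factors in 11.4% (distal 11.01%), TGACAG of MEIS factors in 8.05% (11.8%), TTCNNNGAA of STAT factors in 6.71% (4.44%), TGTGGTT of RUNX factors in 4.70% (3.93%), TTTTATNG of HOX13 factors in 4.70% (4.001%) and ATCAAAG of LEF and TCF factors in 4.70% (2.92%). GGATTA of PITX factors was in 4.03% (4.66%), TGANTCA of AP-1 in 4.03% (4.59%), ACCACCC of GLI factors in 2.68% (2.06%) and AGATAA, a word of GATA factors, in 2.01% (3.92%). Beside the flanks, the interval for AGATAA (0.687 to 5.75) lay below the flank share of 7.72%. That for ATCAAAG (2.29 to 9.38) lay above its flank share of 1.68%, and the others of these words had intervals that included theirs. The PBX and MEIS composite, the NFI word and the control word ATCGCGAT were in none. Of all 20 words, only the interval for TAATTA lay above the distal share and only that for CTCF lay below it. Among the 86 shared peaks at or above the median signal of both libraries, CTCF was in 8, 9.30% (4.79 to 17.3), an interval that includes the distal share of 12.035%. In the same 86 peaks TAATTA was in 11.6% (6.44 to 20.1) and CAGCTG in 25.6% (17.5 to 35.7), and both of these intervals lay above the distal share, which was taken over peaks of any signal. With 20 words read and neighbouring peaks not independent, the counts are descriptions. Some words can share bases, and 35 of the 149 peaks held none of them.

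Base composition was read beside these counts, because it sets how often a word occurs. The median GC content of the shared peaks of the domain was 48.0%, beside 49.3% in distal shared peaks and 46.7% in long intergenic ones. The domain as a whole has 42.1% GC. Repeat-masked bases make up 25.6% of it, while only 2.01% of its shared peaks are mostly masked. The part of base composition in the share of TAATTA was not tested.

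The labelled tissue was checked at promoters, taken as 1 kb to either side of the starts of protein-coding transcripts. A shared peak was present at 66.8% of the 21853 protein-coding genes with such a start, and Sox9 had 4 promoter peaks in replicate 1, 5 in replicate 2 and 3 shared. All 10 genes of a limb mesenchyme list had one (Prrx1, Prrx2, Twist1, Tbx5, Tbx4, Pitx1, Lmx1b, Meis1, Msx1 and Hand2). For other cells of the limb bud the lists hold 5 genes each, and a shared promoter peak was present at 4 of 5 genes of surface ectoderm, 2 of 5 of endothelium, 1 of 5 of blood, 2 of 5 of muscle precursors and 3 of 5 of Schwann cells and neural crest. Cdh5 and Tek of endothelium and the globin gene Hbb-y had no promoter peak in either library. An open promoter does not measure expression, so these lists do not give shares of cells.

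Genes of the cartilage programme were read in the same way, and peaks were counted over all such starts of a gene. No interval was taken for the share, so with 24 genes it is a description. Of 24 chondrogenic genes, 19 had a shared promoter peak (79.2%, beside 66.8% of all protein-coding genes). They include the SOX9 partners Sox5 (2 shared peaks) and Sox6 (8), the collagen gene Col2a1 (2), the aggrecan gene Acan (3), the joint and growth factor gene Gdf5 (3), and its receptor gene Bmpr1b (4). The 5 without one were Sox10, Col9a2, Col11a2, Matn1 and Nkx3-2. Sox10 was also counted above in the list of Schwann cells and neural crest, so its place here does not mark it as a cartilage gene. Of these, Sox10, Col9a2 and Col11a2 had peaks in replicate 2 (1, 2 and 3) and none in replicate 1, Nkx3-2 had 1 in replicate 1 and none in replicate 2, and Matn1, a matrix gene of cartilage, had none in either library.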

How the data were processed

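DNase-seq was measured in 2 limb libraries of 11.5 day embryos. Per the labels, reads were aligned to mm10, and the deposited lists hold regions of each library apart. Neither the aligner nor the caller, nor any setting of them, is named in the sources used here. Each deposited peak is 150 bp long and carries the authors' signal, from 2 to 149, on a scale that is not given in the sources used here. It served to describe and rank peaks of 1 library. Deposited hotspots carry a −log10 q value with a minimum of 1.30 and a ceiling of 100. No read counts were used, so depth is unknown, and Wilson intervals (95%) cover counting error over regions only.

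Regions on the 21 named chromosomes were used with GRCm38 sequence and the GENCODE M21 annotation. Overlap meant at least 1 bp, and shared peaks are overlapping peaks of both libraries merged. A region belongs to the segment that holds its centre. Percentiles are ranks within a library. Words were searched on both strands in the central 150 bp, and flanking windows lie 500 bp to either side.

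Regions named are all peaks within 5 kb of Sox9, the 10 strongest shared peaks, those with the CTCF word, the 3 strongest peaks private to each library, the 5 widest hotspots, the 3 longest peak-free stretches and the 3 fullest bins. Intervals named are the 5 densest and the 2 ranked on each side of Kcnj2 to Sox9. The fullest upstream bin, the noncoding genes, the weakest and most discordant peaks, the runs and the limit of 1500 kb were chosen after values were seen. The members and lists were chosen with earlier results of these data known. Alternatives changed the overlap, signal threshold, region type, interval length and word window, and left out each library. Some steps were tested on simulated data, in which 12000 of 12000 planted overlaps and 1000 of 1000 planted words were found. The simulated regions lay far apart, unlike the runs of the domain. Only the CTCF word was planted, in sequence of A and T alone, so the other words were not tested. Python 3.11.15, NumPy 2.4.6, pandas 2.3.3, SciPy 1.17.1 and Matplotlib 3.10.9 were used.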

Additional observations from a re-analysis of the deposited data

How the results depend on the processing

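The share of peaks with the CTCF word was 5.37%, and 4.39% to 5.97% under the alternatives other than a signal threshold. Keeping only peaks at or above the median signal of their library left 58 shared peaks upstream and 28 from Sox9 to Slc39a11 (99 and 50 with all peaks), 34.0 per Mb upstream, a median distance of 550.0 kb and a percentage of less dense intervals of 93.7. It gave the CTCF word in 9.30% of shared peaks, with an interval that includes the distal share. It raised the share of overlapping peaks to 74.8% in replicate 1 and 81.3% in replicate 2. Requiring an overlap of at least 50% of both peaks lowered those shares to 58.8% and 66.2%, and gave 54.5 shared peaks per Mb upstream and a median distance of 520.8 kb. With hotspots in place of peaks the median distance was 493.8 kb and 93.1% of long intervals were less dense. That percentage was 98.3 among intervals of 1000 kb or more, 83.8 among those of 200 kb or more and 92.0 without peaks within 1 kb of any annotated start. With either library left out, 89.0% to 90.0% of intervals were less dense, peaks upstream numbered 79.2 to 83.9 per Mb, those from Sox9 to Slc39a11 72 to 85, and the median distance was 392.7 to 419.0 kb. Of 39 values recomputed, 16 moved by less than the spread between the libraries or their interval or, for counts, by under 1.5 times. No paired analysis was possible because there is 1 group and no test. The lack of read counts limits the precision of every value here.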
